A study of Arabidopsis thaliana with 12 samples.

Results

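Expression of 9 stomatal lineage genes was measured by RNA sequencing in whole Arabidopsis thaliana seedlings. The genes were chosen by locus identifier: SPCH (AT5G53210), MUTE (AT3G06120), FAMA (AT3G24140), TMM (AT1G80080), EPF1 (AT2G20875), EPF2 (AT1G34245), EPFL9 (AT4G12970), BASL (AT5G60880) and MYB60 (AT1G08810). All 9 were found among the 32399 genes of the deposited table, and all 9 were among the 21870 genes that passed the filter on low counts. The study's title links REVEILLE 5 (RVE5), a Myb-like factor related to the clock factor CCA1, to hypocotyl growth in warmth. Its 12 libraries form 4 groups of 3: a line labelled rve5-2, a T-DNA insertion mutant by its label, after 12 h at 29 °C and after 12 h at 22 °C, and wild type (WT) under the same pair of temperatures. All seedlings were 5 days old, had been grown in long days at 22 °C, and were collected at zeitgeber time 12 h. The temperature was read from each library's own label, because a treatment text shared by all libraries names 29 °C throughout. Nothing in the labels tells separate cultures from repeat preparations, so the spread behind each p-value is that between libraries and may be technical.

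Stomata are pores in the plant epidermis, each bordered by a pair of guard cells that arise through a short cell lineage. Related bHLH transcription factors direct its steps: SPCH drives entry and the asymmetric divisions, MUTE ends these and starts the guard mother cell, and FAMA halts division and specifies guard cells. Secreted peptides of the EPF family are read by receptors of the ERECTA family with TMM, and a MAP kinase cascade downstream restrains SPCH. In Arabidopsis the warmth-responsive bHLH factor PIF4 has been described as a repressor of SPCH at high temperature.

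The regions upstream of 5 of the genes are shown, 4 because their genes moved with temperature in at least one of the fits described later (FAMA, EPF2, EPFL9 and MYB60), and SPCH because it alone held one of the clock motifs searched. Each is the 250 bases before the RefSeq gene start, read 5′ to 3′ on the gene's strand from RefSeq build TAIR10.1. Capitals mark matches, on either strand, to the E-box CANNTG bound by bHLH factors or to the CCA1-binding site AAAAATCT.
FAMA: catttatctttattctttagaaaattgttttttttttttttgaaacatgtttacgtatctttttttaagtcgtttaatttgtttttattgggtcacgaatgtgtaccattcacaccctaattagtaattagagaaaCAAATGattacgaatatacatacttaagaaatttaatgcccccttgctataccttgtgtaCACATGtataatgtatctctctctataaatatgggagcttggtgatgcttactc
EPF2: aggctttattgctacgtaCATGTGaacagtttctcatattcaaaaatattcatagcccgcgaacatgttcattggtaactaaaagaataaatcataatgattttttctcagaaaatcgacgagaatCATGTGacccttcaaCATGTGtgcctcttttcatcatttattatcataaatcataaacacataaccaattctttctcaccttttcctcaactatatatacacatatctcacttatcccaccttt
EPFL9: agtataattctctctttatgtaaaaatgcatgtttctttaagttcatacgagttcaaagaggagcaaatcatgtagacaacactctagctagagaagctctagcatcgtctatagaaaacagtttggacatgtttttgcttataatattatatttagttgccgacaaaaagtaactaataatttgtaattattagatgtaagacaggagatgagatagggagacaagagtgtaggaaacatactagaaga
MYB60: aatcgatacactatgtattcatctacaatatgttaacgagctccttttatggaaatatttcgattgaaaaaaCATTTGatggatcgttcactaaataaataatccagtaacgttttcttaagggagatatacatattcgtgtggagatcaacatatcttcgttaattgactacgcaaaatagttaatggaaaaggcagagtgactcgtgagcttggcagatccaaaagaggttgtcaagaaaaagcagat
SPCH: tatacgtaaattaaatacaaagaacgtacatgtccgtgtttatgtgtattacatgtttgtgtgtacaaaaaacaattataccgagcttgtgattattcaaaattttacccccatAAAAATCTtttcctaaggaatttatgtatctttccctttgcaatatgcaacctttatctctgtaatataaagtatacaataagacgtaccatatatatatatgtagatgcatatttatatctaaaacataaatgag
The positions are chr3:8718212-8718461 on the minus strand for FAMA, chr1:12472618-12472867 on the plus strand for EPF2, chr4:7587100-7587349 on the minus strand for EPFL9, chr1:2820479-2820728 on the minus strand for MYB60 and chr5:21589256-21589505 on the minus strand for SPCH. FAMA had 2 E-boxes, whose first bases lay 114 and 54 bases before the start. EPF2 had 3, at 232, 124 and 109 bases, and MYB60 had 1, at 178 bases. EPFL9, which rose in warmth in the libraries labelled rve5-2, had none in this window.

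Among all 9 genes, 6 held an E-box in the window (MUTE, FAMA, EPF1, EPF2, BASL and MYB60), and 55.7% of 31911 windows of the same length did. The G-box CACGTG, which is itself a form of the E-box, was in none of the 9, against 5.91% of all windows. The evening element AAATATCT was likewise in none, against 4.54%. The CCA1-binding site was in SPCH alone, 136 bases before the start, against 6.33% of all windows. The Dof core AAAG was in all 9, as in 97.5% of all windows, so that it separates nothing. A match describes the letters only. Of the genes shown, SPCH, EPFL9 and MYB60 have RefSeq starts that differ from those of the deposited table, so that other bases precede the table's starts. Whether the starts of the genes not shown differ is not given here.

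The genes lie on all 5 nuclear chromosomes. By the table's coordinates (build TAIR10) SPCH spans 21586606 to 21588941 of chromosome 5, FAMA 8715236 to 8718211 of chromosome 3, EPF2 12472868 to 12473754 of chromosome 1, EPFL9 7586143 to 7586849 of chromosome 4 and MYB60 2819065 to 2820395 of chromosome 1. FAMA has 6 exons in its longest model, and TMM has 1. No annotated gene overlaps any of the 9 on either strand. Of every stretch of 50 bases in their exons, 0% recurs elsewhere in the genome, so that reads were not shared with a near-identical copy.

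Total counts ranged from 65.9 to 89.1 M per library (M, 1e6). Low counts stood 3.71 apart, so these totals would stand for about 17.8 to 24.0 M fragments. RVE5 (AT4G01280), the gene of the allele name, was far higher in the libraries labelled rve5-2 and not lower: it averaged 1329 ± 85.6 CPM there at 29 °C, against 15.1 ± 1.66 CPM in WT, and 1011 ± 68.1 CPM at 22 °C, against 14.9 ± 0.757 CPM in WT (SD, n = 3 each). CPM is the count per 1e6 counts after scaling by the trimmed mean of M values. The label and this measurement go against each other, so the line is called by its label throughout. PIF4 (AT2G43010) averaged 81.6 ± 5.81 CPM at 29 °C and 41.6 ± 5.71 CPM at 22 °C in the libraries labelled rve5-2, against 47.0 ± 8.15 CPM and 21.1 ± 2.93 CPM in WT, and it was called higher in all 4 of these comparisons.

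Some tissue markers also differed with temperature. The summed level of 14 root markers was 11.8 to 26.6 CPM at 29 °C and 107 to 140 CPM at 22 °C in the libraries labelled rve5-2, and 10.8 to 27.3 CPM at 29 °C and 63.5 to 156 CPM at 22 °C in WT, with at most 1 of the 14 at 0 in any library. Of these 14 markers, 10 were called lower in warmth in the libraries labelled rve5-2 and 11 in WT. The sum of 6 markers of protoderm and pavement epidermis was 1695 to 1998 CPM at 29 °C and 1444 to 1826 CPM at 22 °C in the libraries labelled rve5-2, and 1460 to 1753 CPM at 29 °C and 1145 to 1387 CPM at 22 °C in WT. LTP1, the most abundant of the 6, was the 1 called in each genotype (higher), and it carried much of the sum. The median log2 fold change of the 6 was -0.04 in the libraries labelled rve5-2, where 4 of the 6 had negative estimates, and 0.18 in WT. The sum of 6 markers of dividing cells was 184 to 215 CPM at 29 °C and 164 to 193 CPM at 22 °C in the libraries labelled rve5-2, which overlapped, and 209 to 227 CPM at 29 °C and 176 to 183 CPM at 22 °C in WT, which did not. Of these 6, 1 was called higher in each genotype, but not the same 1: KNOLLE in the libraries labelled rve5-2 and CDKB2;1 in WT. For the mean warm response of both genotypes 4 were called higher and 1, CYCB1;1, lower, against 38.6% of all genes called. The part that such shifts in tissue play in the members' values was not tested, and in whole seedlings fewer cells of a type and less RNA per cell cannot be told apart.

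Per length, the lineage genes spanned a wide range. On the authors' FPKM scale (fragment counts divided by transcript length and library size), EPFL9 had the highest mean in every group: 59.6 ± 6.61 FPKM at 29 °C and 39.2 ± 5.61 FPKM at 22 °C in the libraries labelled rve5-2, and 57.7 ± 10.7 FPKM at 29 °C and 46.8 ± 3.32 FPKM at 22 °C in WT (SD, n = 3 each). EPFL9, also called STOMAGEN, is a peptide that promotes stomata and is made in the mesophyll beneath the epidermis. Its lowest library, at 34.0 FPKM, lay above the highest library of every other member, which was 14.2 FPKM for EPF2.

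EPF2 came second at 29 °C, with 8.95 ± 1.10 FPKM in the libraries labelled rve5-2 and 10.8 ± 3.03 FPKM in WT, and second in WT at 22 °C, with 7.48 ± 1.54 FPKM; in these 3 groups its libraries did not overlap those of TMM, the next gene. In the libraries labelled rve5-2 at 22 °C the second to sixth places were held by SPCH, TMM, EPF2, FAMA and MYB60, with means of 6.83, 6.22, 6.12, 5.95 and 5.80 FPKM, and every neighbour in that order overlapped the next. At 29 °C in the libraries labelled rve5-2, MYB60 and FAMA stood sixth and seventh, at 2.74 ± 0.671 and 2.68 ± 0.754 FPKM. EPF1 and MUTE closed the order in every group and overlapped each other in each. EPF1 averaged 1.25 to 1.49 FPKM and MUTE 0.463 to 0.981 FPKM over the groups.

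**Figure D1:**
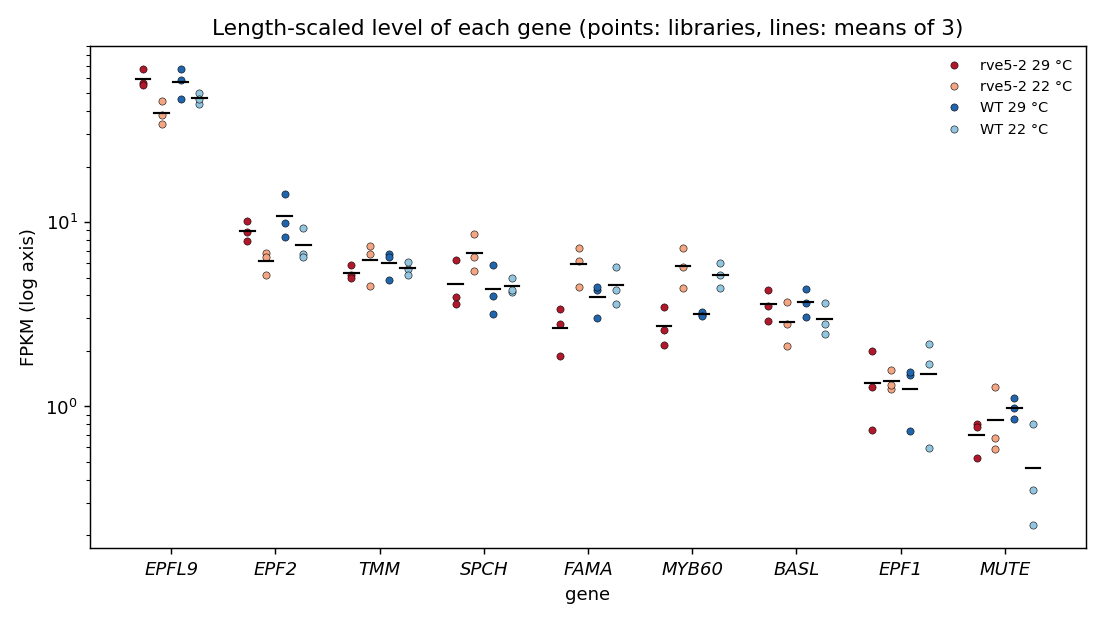
Level per length of each gene on a logarithmic FPKM axis; points are libraries coloured by group, and short lines are the means of 3 libraries. EPFL9 lies between 34.0 and 67.8 FPKM, above all other genes, and EPF1 and MUTE lie lowest.

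Depth differed accordingly. At 3.71 counts per fragment, MUTE rested on about 4.04 to 22.4 fragments per library and EPF1 on about 5.66 to 22.4, while SPCH had about 78.7 to 181, FAMA 58.8 to 242 and EPFL9 302 to 766. In the comparisons of 1 group with another, fold changes of MUTE and EPF1 had an SE of 0.55 to 0.59 on the log2 scale, and those of EPFL9 one of 0.15.

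Warm responses ran in both directions among the 9 genes, as they did over all genes. In the libraries labelled rve5-2, EPFL9 rose 1.63-fold at 29 °C, while FAMA, the factor of the last step, fell to 0.484 of its level at 22 °C, and MYB60, a guard cell MYB factor that promotes stomatal opening, fell to 0.507 of it. These 3 of 9 genes passed an adjusted p of 0.05 in edgeR's quasi-likelihood test (33.3%), against 26% of all 21870 genes tested, of which 13% were higher and 13% lower. In WT none of the 9 passed in edgeR, against 15.5% of all genes (8.08% higher and 7.41% lower), and 3 (EPF2, EPFL9 and MYB60) had an unadjusted p under 0.05. DESeq2 and limma on log2(FPKM + 1) each called 1 gene in WT, MYB60, and limma on log2(FPKM + 0.1) called none. The median log2 fold change of the 9 was -0.13 in the libraries labelled rve5-2, against -0.00 over all genes, and 0.15 in WT, against 0.00 over all genes.

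**Figure D2:**
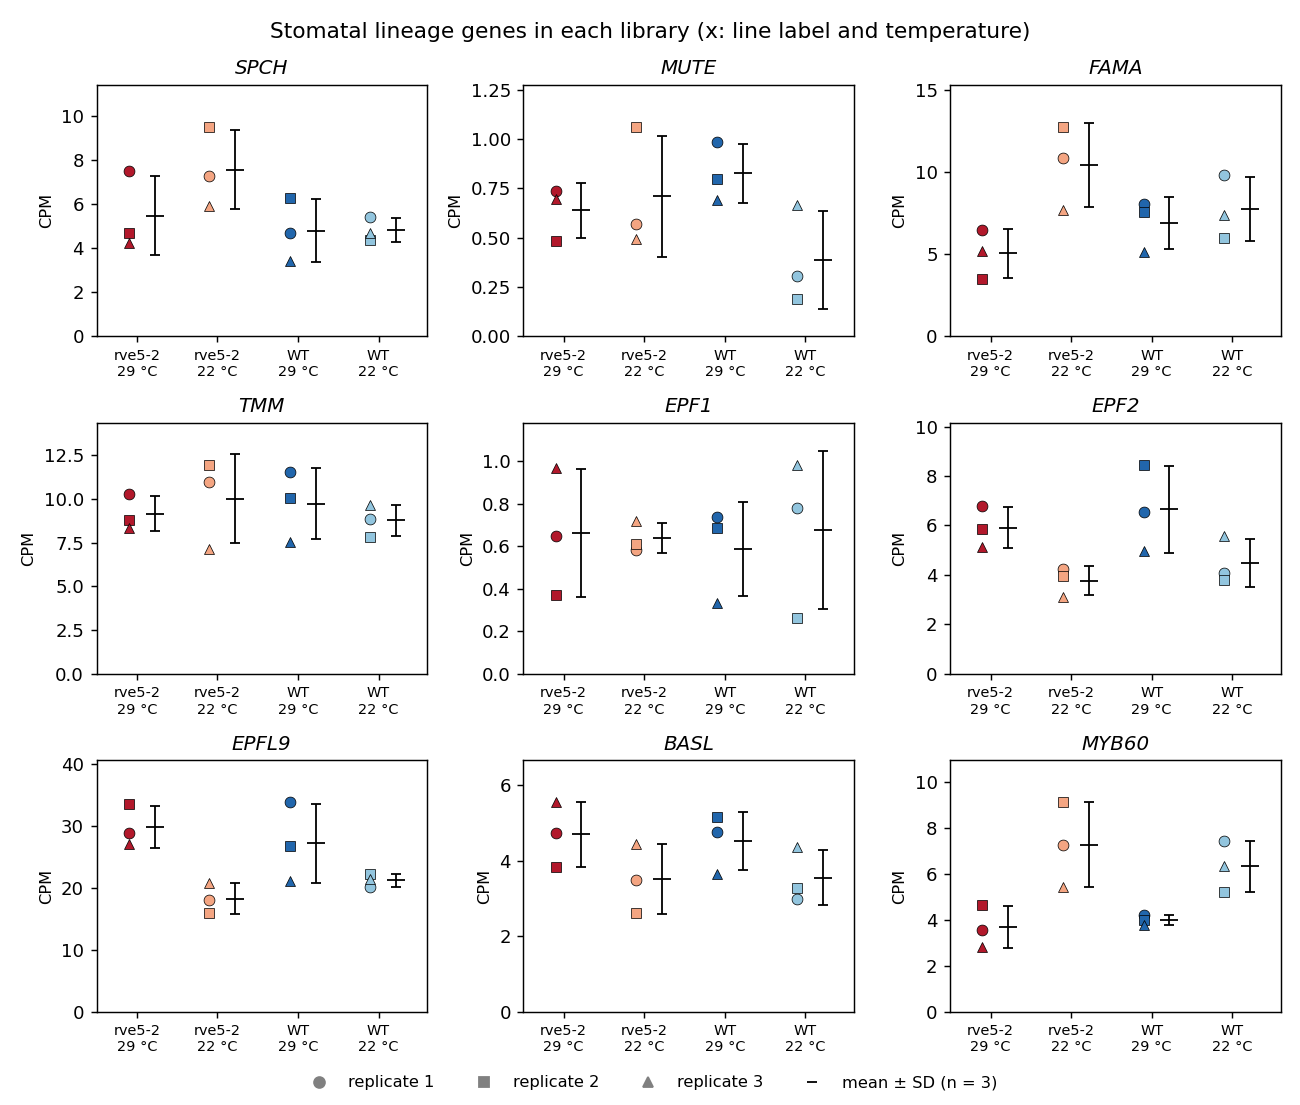
CPM of each gene in each library, in panels by gene with the groups from rve5-2 at 29 °C on the left to WT at 22 °C on the right; marker shapes give the replicate and bars the mean ± SD of 3 libraries. The 29 °C libraries labelled rve5-2 lie wholly above those at 22 °C for EPFL9 and EPF2 and wholly below them for FAMA and MYB60.

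SPCH, which starts the lineage, had 7.52, 4.68 and 4.21 CPM at 29 °C in the libraries labelled rve5-2, against 7.27, 9.52 and 5.93 CPM at 22 °C. WT seedlings had 4.69, 6.29 and 3.40 CPM at 29 °C, against 5.44, 4.38 and 4.67 CPM at 22 °C. The temperatures overlapped in both genotypes. The log2 fold change was -0.47 ± 0.27 (SE; 95% interval -1.05 to 0.12; adjusted p = 0.225, edgeR) in the libraries labelled rve5-2 and -0.01 ± 0.27 (-0.60 to 0.58; adjusted p = 0.986, edgeR) in WT. Neither interval leaves out 0, and that of the libraries labelled rve5-2 reaches further down.

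Like EPF1, MUTE, which ends the asymmetric divisions, had few reads. It had 0.737, 0.481 and 0.695 CPM at 29 °C in the libraries labelled rve5-2, against 0.571, 1.06 and 0.493 CPM at 22 °C. WT libraries had 0.986, 0.799 and 0.691 CPM at 29 °C, against 0.304, 0.188 and 0.663 CPM at 22 °C. In WT every 29 °C library was thus above every 22 °C library, by a small margin at the nearest pair. The WT log2 fold change was 1.10 ± 0.56 (SE; -0.12 to 2.31) and missed the threshold, with an adjusted p of 0.202 in edgeR. Without WT 22 °C replicate 3, the highest of its group, it was 1.74 (adjusted p = 0.102, in a range of 0.0847 to 0.779 over the alternatives). In the libraries labelled rve5-2 it was -0.15 ± 0.55 (SE).

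FAMA had 6.43, 3.49 and 5.18 CPM at 29 °C in the libraries labelled rve5-2, against 10.8, 12.7 and 7.67 CPM at 22 °C. No library at 29 °C reached the lowest at 22 °C. Its log2 fold change there was -1.05 ± 0.27 (SE; -1.64 to -0.46; adjusted p = 0.0148, edgeR). WT had 8.02, 7.58 and 5.09 CPM at 29 °C, against 9.82, 5.99 and 7.39 CPM at 22 °C, and these overlapped, with a log2 fold change of -0.17 ± 0.27 (SE; adjusted p = 0.717, edgeR). The call for FAMA held in 19 of 22 alternatives, with adjusted p-values from 0.00163 to 0.458. It was lost without rve5-2 22 °C replicate 2 (log2 fold change -0.88; adjusted p = 0.0584), without rve5-2 29 °C replicate 2 (-0.84; adjusted p = 0.0612) and with the root marker score as a covariate (-1.26; adjusted p = 0.458), so that the estimate kept its direction and much of its size in each.

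Among the ligands, EPFL9 had 28.8, 33.5 and 27.0 CPM at 29 °C in the libraries labelled rve5-2, against 18.1, 15.9 and 20.8 CPM at 22 °C. The groups were apart, and the log2 fold change was 0.70 ± 0.15 (SE; 0.37 to 1.04; adjusted p = 0.00642, edgeR). WT had 33.8, 26.7 and 21.0 CPM at 29 °C, against 20.1, 22.1 and 21.4 CPM at 22 °C. There 2 of the 3 warm libraries exceeded all at 22 °C and the third was among them, and the log2 fold change of 0.36 ± 0.15 (SE; 0.03 to 0.69) had an adjusted p of 0.132 in edgeR. The sum of 4 mesophyll and green tissue markers, the tissue in which EPFL9 is made, was 44507 to 52982 CPM at 29 °C and 43657 to 47149 CPM at 22 °C in the libraries labelled rve5-2, and 35647 to 48936 CPM at 29 °C and 37359 to 40425 CPM at 22 °C in WT. The temperatures overlapped in these sums, none of the 4 markers being called in the libraries labelled rve5-2 and 1 being called lower in WT. RBCS1A carried most of each sum. In the libraries labelled rve5-2, CA1 was higher at 29 °C without overlap, with a log2 fold change of 0.44 and an adjusted p of 0.0566 in edgeR. The other estimates there were 0.13 for CAB3, 0.09 for RBCS1A and -0.08 for LHCB1.3. In WT at 29 °C, replicate 1 was the highest of its group in both EPFL9 and these markers. Their part in the EPFL9 values was not tested.

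EPF2, the peptide that limits entry into the lineage and acts against EPFL9 at the same receptors, had 6.79, 5.85 and 5.11 CPM at 29 °C in the libraries labelled rve5-2, against 4.22, 3.97 and 3.13 CPM at 22 °C. Although these groups did not overlap, the log2 fold change of 0.65 ± 0.23 (SE; 0.16 to 1.14) had an adjusted p of 0.0532 in edgeR. It passed in 6 of 22 alternatives, with adjusted p-values from 0.0307 to 0.646. WT had 6.53, 8.46 and 4.95 CPM at 29 °C, against 4.09, 3.77 and 5.59 CPM at 22 °C, with a log2 fold change of 0.57 ± 0.23 (SE; 0.07 to 1.06; adjusted p = 0.108, edgeR). The promoting and the limiting peptide thus both had positive estimates in both genotypes, except EPFL9 in WT with the root marker score as a covariate (-0.20).

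EPF1, a related peptide of later stages that keeps stomata apart, ranged from 0.369 to 0.968 CPM at 29 °C and from 0.584 to 0.717 CPM at 22 °C in the libraries labelled rve5-2. In WT it ranged from 0.334 to 0.737 CPM at 29 °C and from 0.263 to 0.983 CPM at 22 °C. The groups overlapped, and the log2 fold changes were 0.05 ± 0.59 and -0.20 ± 0.59 (SE). The intervals ran from -1.22 to 1.33 and from -1.48 to 1.07, so that neither a rise nor a fall within them is left out.

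The ratio of EPFL9 to EPF2 on the FPKM scale, which sets the promoting against the limiting peptide per length, was 5.60, 7.56 and 6.98 at 29 °C and 5.65, 5.30 and 8.77 at 22 °C in the libraries labelled rve5-2. WT had ratios of 6.84, 4.16 and 5.61 at 29 °C and 6.48, 7.74 and 5.05 at 22 °C. The temperatures overlapped in both genotypes. The ratio of FAMA to SPCH, which sets the last factor of the lineage against the first, was 0.541, 0.474 and 0.778 at 29 °C and 0.946, 0.847 and 0.820 at 22 °C in the libraries labelled rve5-2, without overlap. In WT it was 1.08, 0.762 and 0.951 at 29 °C and 1.14, 0.868 and 1.003 at 22 °C, which overlapped. The ratios are descriptions and were not tested.

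TMM, a receptor-like protein that shapes how the ERECTA family reads the peptides, had 10.3, 8.81 and 8.36 CPM at 29 °C in the libraries labelled rve5-2, against 10.9, 12.0 and 7.13 CPM at 22 °C. WT had 11.5, 10.06 and 7.54 CPM at 29 °C, against 8.84, 7.83 and 9.63 CPM at 22 °C. The log2 fold changes were -0.13 ± 0.20 (SE; -0.56 to 0.30) and 0.15 ± 0.20 (SE; -0.28 to 0.58). The temperatures overlapped in both genotypes. BASL, which marks one side of the cell before an asymmetric division, had 4.73, 3.83 and 5.55 CPM at 29 °C, against 3.49, 2.61 and 4.45 CPM at 22 °C in the libraries labelled rve5-2. WT had 4.77, 5.15 and 3.65 CPM at 29 °C, against 2.995, 3.27 and 4.37 CPM at 22 °C. Its log2 fold changes of 0.42 ± 0.24 and 0.35 ± 0.24 (SE) were positive in both genotypes and passed in neither.

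MYB60 had 3.57, 4.65 and 2.82 CPM at 29 °C in the libraries labelled rve5-2, against 7.25, 9.09 and 5.44 CPM at 22 °C. WT had 4.21, 3.98 and 3.76 CPM at 29 °C, against 7.42, 5.22 and 6.31 CPM at 22 °C. It was the one gene of the 9 whose temperatures were apart in the same direction in both genotypes. The log2 fold change was -0.98 ± 0.23 (SE; -1.48 to -0.48; adjusted p = 0.00878, edgeR) in the libraries labelled rve5-2 and -0.67 ± 0.23 (SE; -1.16 to -0.17; adjusted p = 0.0662, edgeR) in WT. The WT value passed in DESeq2 (adjusted p = 0.0368) and in limma on log2(FPKM + 1) (adjusted p = 0.0458) and in none of the other 20 of 22 alternatives, whose range ran to an adjusted p of 0.505. The sum of 5 guard cell markers was 29.0 to 39.1 CPM at 29 °C and 22.5 to 31.4 CPM at 22 °C in the libraries labelled rve5-2, and 25.2 to 33.0 CPM at 29 °C and 19.7 to 25.4 CPM at 22 °C in WT, none of the 5 being at 0 in any library. KAT1 carried most of this sum and was called higher in both genotypes, while the other 4 markers had negative estimates in the libraries labelled rve5-2, where SCAP1 was called lower. The median log2 fold change of the 5 was -0.36 in the libraries labelled rve5-2 and -0.14 in WT. The part of these markers in the MYB60 values was not tested.

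Counted by separation, 4 of the 9 genes had libraries that did not overlap between temperatures in the libraries labelled rve5-2 (EPF2 and EPFL9 higher, FAMA and MYB60 lower), against 45.6% of all genes tested. In WT 2 of the 9 did (MUTE higher and MYB60 lower), against 36.3% of all genes. The calls for EPFL9 and MYB60 in the libraries labelled rve5-2 held in 21 of 22 alternatives each. The exception was the root marker score as a covariate, under which the log2 fold changes were 0.09 (adjusted p = 0.936) for EPFL9 and -1.44 (adjusted p = 0.313) for MYB60. That score separates the temperatures in every library, so the covariate and temperature cannot be told apart, and over all genes 43 were called with it and 5696 without it.

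**Figure D3:**
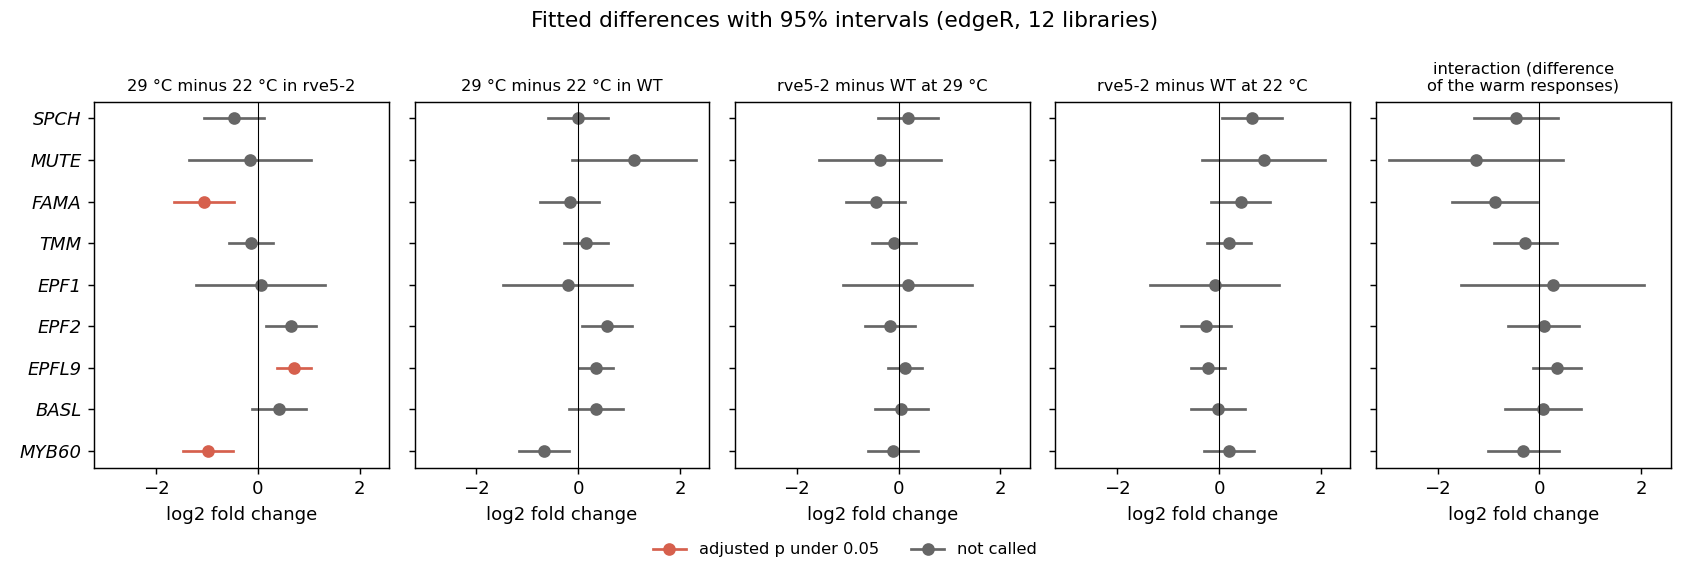
Fitted log2 fold changes with 95% intervals from edgeR over 12 libraries for the warm response in each genotype, the difference between genotypes at each temperature, and the interaction; red marks an adjusted p under 0.05. Only FAMA, EPFL9 and MYB60 are red, and each of them in the panel for 29 °C minus 22 °C in rve5-2.

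Averaging the warm response over both genotypes, a contrast chosen after seeing the data, used all 12 libraries. It called 4 of the 9 genes, against 38.6% of all genes. EPFL9 was higher (log2 fold change 0.53 ± 0.11, SE; adjusted p = 0.00243, edgeR), as was EPF2 (0.61 ± 0.16, SE; adjusted p = 0.0104, edgeR). MYB60 was lower (-0.82 ± 0.16, SE; adjusted p = 0.00184, edgeR), as was FAMA (-0.61 ± 0.19, SE; adjusted p = 0.0246, edgeR). SPCH did not pass, at -0.24 ± 0.19 (SE; adjusted p = 0.347, edgeR), and BASL had an adjusted p of 0.0963 in edgeR.

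Between the lines, no lineage gene passed at either temperature. At 22 °C edgeR called none of the 9, against 0.192% of all genes, and DESeq2 none, and 1 gene, SPCH, had an unadjusted p under 0.05. SPCH averaged 7.57 ± 1.81 CPM in the libraries labelled rve5-2 and 4.83 ± 0.548 CPM in WT (SD, n = 3 each), and the groups did not overlap, as was true of 14.4% of all genes. Its log2 fold change was 0.65 ± 0.27 (SE; 0.06 to 1.24), with an adjusted p of 0.727 in edgeR. FAMA averaged 10.4 ± 2.56 CPM in the libraries labelled rve5-2 and 7.73 ± 1.93 CPM in WT, a log2 fold change of 0.43 ± 0.27 (SE; -0.15 to 1.01), and EPFL9 averaged 18.2 ± 2.46 and 21.2 ± 1.06 CPM, a log2 fold change of -0.22 ± 0.15 (SE).

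At 29 °C edgeR and DESeq2 called none of the 9, against 0.466% of all genes in edgeR, and none had an unadjusted p under 0.05. The libraries of every one of the 9 overlapped between the lines, while those of 11.6% of all genes did not. The largest estimate in size was that of FAMA, which averaged 5.03 ± 1.47 CPM in the libraries labelled rve5-2 and 6.90 ± 1.58 CPM in WT, a log2 fold change of -0.45 ± 0.27 (SE; -1.04 to 0.13). SPCH averaged 5.47 ± 1.79 and 4.79 ± 1.45 CPM, a log2 fold change of 0.19 ± 0.27 (SE; -0.40 to 0.78). EPFL9 averaged 29.8 ± 3.36 and 27.2 ± 6.39 CPM, a log2 fold change of 0.13 ± 0.15 (SE; -0.20 to 0.46). Averaged over both temperatures, a contrast chosen after seeing the data, none of the 9 was called, against 0.686% of all genes. SPCH had a log2 fold change of 0.42 ± 0.19 in it (SE; adjusted p = 0.521, edgeR).

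The warm response itself was compared between the lines by the interaction, in which the WT response to 29 °C is subtracted from that of the line labelled rve5-2. No gene of the table passed in edgeR, 44 passed in DESeq2, and none of the 9 was among either. FAMA was the 1 lineage gene with an unadjusted p under 0.05, with an interaction of -0.88 ± 0.38 (SE; -1.71 to -0.06) and an adjusted p of 0.981 in edgeR. The interaction of EPFL9 was 0.35 ± 0.22 (SE; -0.12 to 0.82) and that of MYB60 was -0.32 ± 0.32 (SE; -1.01 to 0.38). The calls made in the libraries labelled rve5-2 and not in WT are therefore not shown to differ between the lines.

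How far the 9 genes moved together differed between libraries, and no share over all genes was taken for the counts below. Replicate 3 of WT at 29 °C was the lowest of its group in 9 of 9 genes, with a median deviation from the group mean of -0.34 on the log2(CPM + 0.1) scale. Replicate 2 of WT at 22 °C was lowest in 7 of 9 and highest in 1. In the libraries labelled rve5-2, replicate 1 at 29 °C was highest in 5 of 9 and lowest in 0. At 22 °C replicate 2 was highest in 5 and lowest in 2, and replicate 3 was lowest in 6 and highest in 3.

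The summed epidermal markers of WT at 29 °C were 1753, 1707 and 1460 CPM in replicates 1 to 3, so the library lowest in the lineage genes was also lowest in these markers. Over the 5 guard cell markers its mean of log2 CPM, 1.75, lay between those of replicates 1 and 2, at 1.76 and 1.67. The part of either in the lineage values was not tested. Without that library, 2 of the 9 genes passed in WT: EPF2 at 0.74 (adjusted p = 0.0449) and EPFL9 at 0.51 (adjusted p = 0.0256) on the log2 scale in edgeR. Over all genes, 3621 passed in WT without that library, against 3387 with it. Over the 22 alternatives the WT adjusted p-values of EPF2 and EPFL9 ran up to 0.734 and 0.860.

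**Figure D4:**
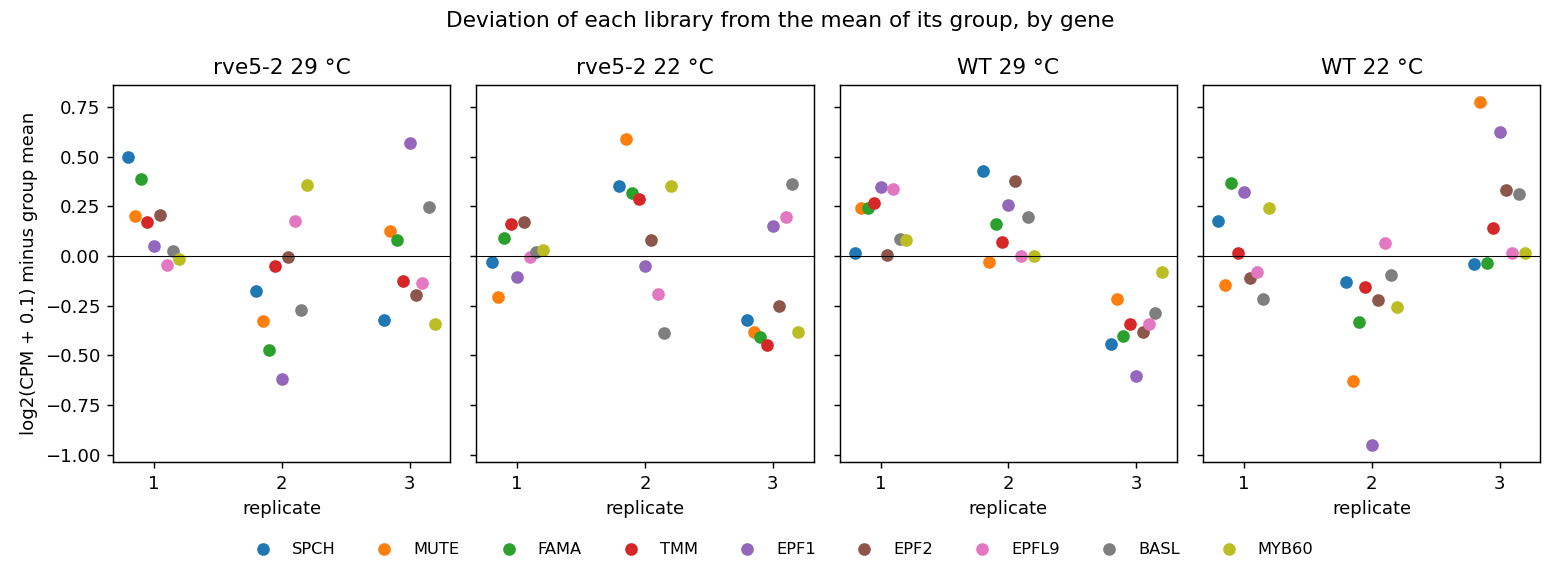
Deviation of each library from its group mean in log2(CPM + 0.1), by replicate, in panels from rve5-2 at 29 °C to WT at 22 °C; colours are the 9 genes. All 9 points of WT 29 °C replicate 3 lie below 0, with a median of -0.34.

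A list of 38 other stomatal genes was read in the same fit, of which 37 passed the filter and CYCD7;1 did not. In warmth, 4 were called higher and 3 lower in the libraries labelled rve5-2 (18.9%, against 26% of all genes), and 5 higher and 1 lower in WT (16.2%, against 15.5%). The median log2 fold change of the list was -0.09 in the libraries labelled rve5-2 and 0.10 in WT. None was called between the lines at either temperature or for the interaction in edgeR, where 5 at 22 °C, 2 at 29 °C and 3 for the interaction had an unadjusted p under 0.05. Named are the called genes with the 4 smallest adjusted p-values per comparison, and the remaining called genes were named after their values were seen.

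CRSP, a subtilase that in Arabidopsis cleaves the EPF2 precursor, fell in both genotypes. It had 2.55, 2.44 and 3.35 CPM at 29 °C, against 11.8, 7.68 and 9.98 CPM at 22 °C in the libraries labelled rve5-2, a log2 fold change of -1.82 ± 0.29 (SE; adjusted p = 0.00117, edgeR). WT had 2.51, 2.31 and 3.98 CPM at 29 °C, against 7.96, 4.99 and 10.4 CPM at 22 °C, a log2 fold change of -1.41 ± 0.29 (SE; adjusted p = 0.00769, edgeR). No library at 29 °C reached one at 22 °C in either genotype. Its substrate EPF2 had positive estimates in the same libraries.

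KAT1, a potassium channel of guard cells, rose in both genotypes. It had 25.3, 30.4 and 20.4 CPM at 29 °C, against 15.8, 17.4 and 14.5 CPM at 22 °C in the libraries labelled rve5-2, with a log2 fold change of 0.67 ± 0.18 (SE; adjusted p = 0.0156, edgeR). WT had 21.9, 16.0 and 22.9 CPM at 29 °C, against 12.6, 8.92 and 12.2 CPM at 22 °C, with a log2 fold change of 0.85 ± 0.18 (SE; adjusted p = 0.00837, edgeR). KAT1 and MYB60, both guard cell genes, thus had opposite signs. SCAP1, a Dof factor of guard cell maturation, fell in the libraries labelled rve5-2, to 1.18 ± 0.0887 CPM at 29 °C, against 2.60 ± 1.12 CPM at 22 °C (log2 fold change -1.13 ± 0.36, SE; adjusted p = 0.0352, edgeR). That call held in 15 of 22 alternatives, and with the replicate block its log2 fold change was -1.11 and its adjusted p 0.0554, in a range from 0.0137 to 0.804.

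EPFL6/CHAL, a ligand of inner tissues, rose in the libraries labelled rve5-2 to 3.27, 5.10 and 5.00 CPM at 29 °C, against 1.85, 2.25 and 2.51 CPM at 22 °C (log2 fold change 1.01 ± 0.25, SE; adjusted p = 0.0108, edgeR). MPK3, a kinase of the restraining cascade, fell there to 31.4 ± 2.62 CPM, against 44.2 ± 2.73 CPM at 22 °C (-0.49 ± 0.09, SE; adjusted p = 0.00189, edgeR). SOL1 and SOL2, regulators of cell state transitions in the lineage, rose in both genotypes. SOL1 changed by 0.41 ± 0.12 in the libraries labelled rve5-2 (adjusted p = 0.0266) and by 0.54 ± 0.12 in WT (adjusted p = 0.0118), and SOL2 by 0.30 ± 0.08 (adjusted p = 0.0144) and 0.35 ± 0.08 (adjusted p = 0.0111), as log2 fold changes with SE in edgeR.

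In WT the kinase gene YDA (0.28 ± 0.08, SE; adjusted p = 0.0400, edgeR) and the receptor gene ERL2 (0.46 ± 0.14, SE; adjusted p = 0.0484, edgeR) were also called higher, and these calls held in 13 and 10 of 22 alternatives. With the root marker score as a covariate, none of the 37 was called in either genotype.

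**Figure D5:**
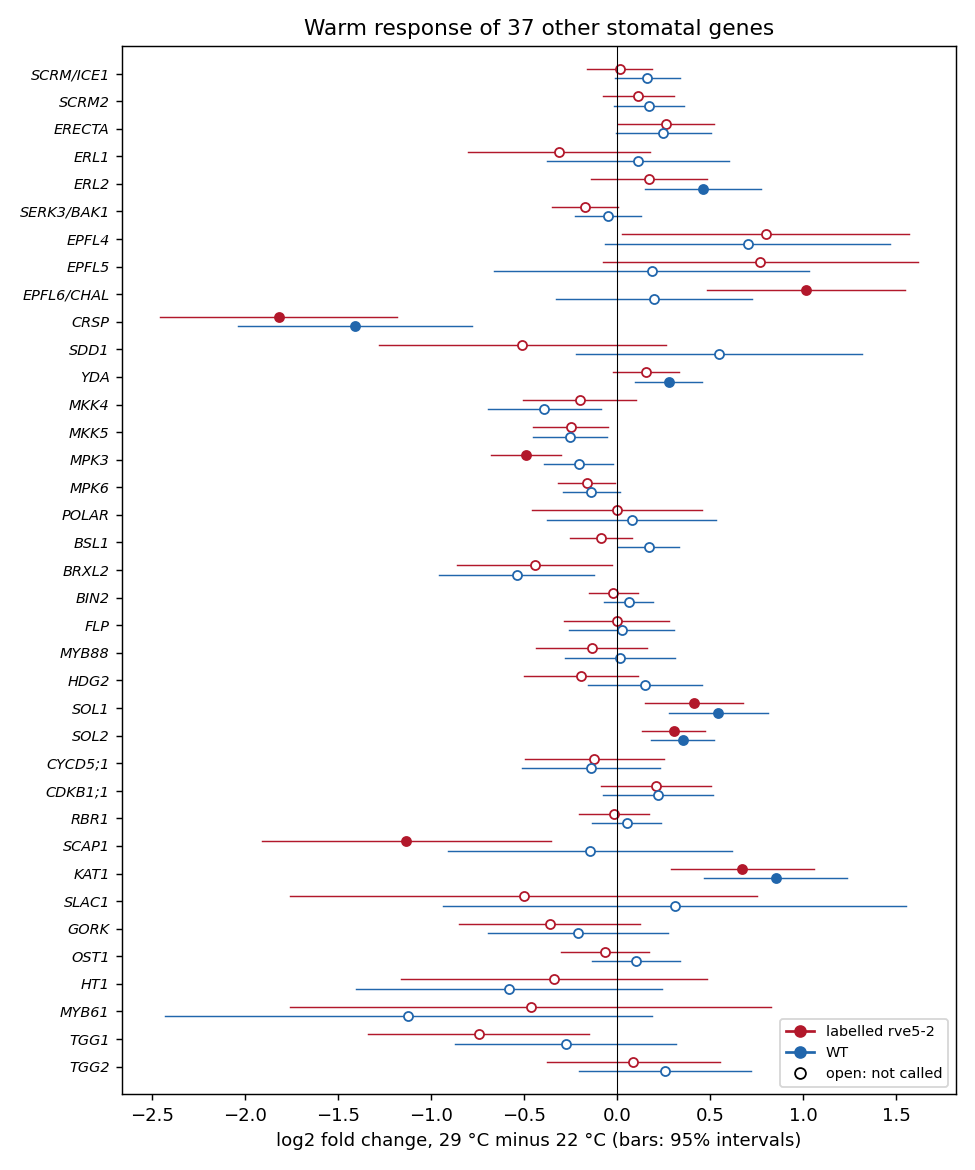
Warm response of the 37 other stomatal genes tested, as log2 fold changes with 95% intervals, in the libraries labelled rve5-2 (red, upper of each pair) and WT (blue); filled points passed an adjusted p of 0.05. CRSP lies lowest in both genotypes, at -1.82 and -1.41, and KAT1, SOL1 and SOL2 are filled to the right in both.

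For the 3 lineage genes called, the genes with the most similar profile were sought among 21869 others. The measure was the mean absolute difference of log2 CPM, centred per gene, over the 12 libraries, where smaller is more alike. The nearest to FAMA were TGG1 (0.153), NIA1 (0.167) and AT2G39400 (0.178). The nearest to EPFL9 were AT2G44798 (0.0835), AT5G38360 (0.0940) and ZFN1 (0.0947). The nearest to MYB60 were BCAT-1 (0.165), AT1G55380 (0.169) and LACS1 (0.171).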

How the data were processed

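RNA of 12 libraries was prepared with Trizol and an Illumina TruSeq RNA kit, per the labels' protocols; that kit does not mark strand. The authors deposited 1 table with a count and an FPKM column per library, per the file headers. The counts are whole numbers, and the FPKM values were scaled by length and library size by the authors. The submitters' processing notes name cutadapt 1.9, HISAT2 2.0.4, StringTie 1.3.4d, edgeR and build TAIR10; how reads were assigned to genes is not given in the sources used here. Low counts stood 3.71 apart, so the deposited counts may not be raw fragment counts, and dividing by that spacing was an alternative.

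The model was fitted with edgeR 4.0.16 under R 4.3.3: filterByExpr with a minimum count of 10, trimmed-mean scaling, and a quasi-likelihood fit with 1 mean per group over all 12 libraries and 21870 genes. A gene was called at a Benjamini-Hochberg adjusted p under 0.05, with all tested genes in the adjustment. SEs are the log2 fold change over the root of the quasi-likelihood F. Intervals are at 95%. The fit was tested on simulated data. Each comparison of 1 group with another had 22 alternatives, and the interaction had 21. The contrasts averaged over genotypes or temperatures were not run under them. The alternatives were DESeq2 1.42.0, limma 3.58.1 on log2(FPKM + 0.1) and log2(FPKM + 1), median-of-ratios scaling, no filter and a minimum count of 40. The others were counts divided by the spacing, the contrast's libraries alone, a replicate block, the root marker score as a covariate, and leaving out each library. Genes named by rule outside the 9 were RVE5 and PIF4, the called genes with the 4 smallest adjusted p-values per comparison of the stomatal list, and the 3 nearest profiles per called gene. The other called genes of that list, CYCD7;1, which did not pass the filter, and the single tissue markers were named after their values were seen. The 9 genes, the lists and the tests were chosen with earlier results of these data known. Upstream sequences came from RefSeq TAIR10.1; of the table's genes, 31912 loci were found there and 9854 had the same start and end.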

Additional observations from a re-analysis of the deposited data

How the results depend on the processing

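The number of the 9 genes called in the libraries labelled rve5-2 was 3, and 2 to 4 when single libraries were left out. It was 0 with the root marker score as a covariate. EPF2 passed there as well in DESeq2 (adjusted p = 0.0373) and in edgeR on the contrast's libraries alone (adjusted p = 0.0307). In WT the number of the 9 called was 0, and 0 to 2 when single libraries were left out. That WT number was 1 in DESeq2 and 1 in limma on log2(FPKM + 1). For the mean of both genotypes, a different contrast that includes the libraries labelled rve5-2, the number was 4. Between the lines and for the interaction it was 0 under every alternative run. A fit on the libraries of the contrast alone could not be made for the interaction. By replicate number, 6 of 18 same-numbered pairs and 8 of 36 others correlated above 0.1 (-0.11 to 0.39 and -0.37 to 0.26). Between the lines at 29 °C, the same-numbered pairs had correlations of 0.38, 0.03 and 0.39 for replicates 1 to 3. Whether equal numbers mark libraries handled together is not given by the labels and was not tested. With the replicate block the counts of called genes were again 3 and 0. Among the called genes of the stomatal list, the replicate block ended 1 call, that of SCAP1 (log2 fold change -1.11, against -1.13 without the block; adjusted p = 0.0554, edgeR), and ended no other. RVE5, PIF4 and the tissue markers were not followed under the alternatives. Among the 9 genes and the other stomatal genes, no warm response called in a genotype by the main edgeR fit changed sign under any alternative. EPFL9 in WT, which passed only without WT 29 °C replicate 3, was -0.20 with the root marker score.

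With the root marker score, log2 fold changes in warmth changed sign in WT for TMM (-0.26), EPF1 (0.61) and EPFL9 (-0.20), and for MUTE (0.20) in the libraries labelled rve5-2. That of EPF1 changed sign in the libraries labelled rve5-2 with the replicate block (-0.0265) and in limma with pseudocounts of 0.1 (-0.13) and 1 (-0.0545), and between the lines at 22 °C with the replicate block (0.0280) and a pseudocount of 0.1 (0.0492). That of BASL between the lines at 29 °C changed sign in limma (-0.0425 and -0.0335).

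Leaving out single libraries let further uncalled estimates cross 0. In warmth these were SPCH (-0.25 to 0.19), FAMA (-0.32 to 0.0430) and EPF1 (-0.59 to 0.17) in WT, and MUTE (-0.35 to 0.26), TMM (-0.32 to 0.0188) and EPF1 (-0.32 to 0.34) in the libraries labelled rve5-2. Between the lines at 22 °C they were EPF1 (-0.47 to 0.29) and BASL (-0.22 to 0.17). At 29 °C they were SPCH (-0.11 to 0.44), TMM (-0.24 to 0.0572), EPF1 (-0.20 to 0.46), EPF2 (-0.34 to 0.0437), EPFL9 (-0.0237 to 0.32), BASL (-0.0791 to 0.18) and MYB60 (-0.32 to 0.0436). For the interaction they were EPF1 (-0.12 to 0.64), EPF2 (-0.11 to 0.29) and BASL (-0.11 to 0.27).

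Over all genes, 5696 were called in warmth in the libraries labelled rve5-2 and 3387 in WT, and with the root marker score 43 and 24. On the contrast's libraries alone, WT had 1687. Between the lines the counts were 102 at 29 °C (345 in DESeq2, 38 on the contrast's libraries alone) and 42 at 22 °C (143 and 75). The share of calls that were higher was 50% in the libraries labelled rve5-2 and 52.2% in WT, and 33.2% and 41% in limma on log2(FPKM + 1). Of the 37 other stomatal genes, 7 were called in the libraries labelled rve5-2 and 6 in WT, against 5 to 9 and 3 to 6 without single libraries, and 0 and 0 with the root marker score. The causes of these shifts were not tested. MUTE and EPF1 had the fewest fragments of the 9 genes and the largest SEs, and the part of depth in those SEs was not tested.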
